A study of Mus musculus with 82 samples.

Results

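The general transcription factors of RNA polymerase II and subunits of Mediator were followed through 8 RNA comparisons of mouse blood-forming cells and at their promoters in young and old hematopoietic stem cells (HSCs). The 50 genes were chosen by name as subunits of these complexes, from 55376 genes in the count tables. They comprise 12 TATA-binding-protein-associated factors (TAFs) of TFIID, 2 genes of TFIIA, 1 of TFIIB, 2 of TFIIE, 2 of TFIIF, 10 of TFIIH and 21 of Mediator. All cells came from wild-type C57BL/6J mice, and RNA-seq of bone marrow HSCs sorted as LSK CD34- Flk2- CD150+ covered 4 young and 8 old libraries. Young libraries were each made from pooled mice and old libraries from single mice, all male. Young common myeloid progenitors (CMPs), granulocyte-monocyte progenitors (GMPs) and megakaryocyte-erythrocyte progenitors (MEPs) had 2 libraries each. Old HSCs were also transduced with lentivirus carrying a control hairpin (shControl) or 1 of 2 hairpins against the shorter variant of Btaf1 (shRNA1, shRNA2). Each of these 3 arms had 2 libraries from culture and 2 from GFP+ CD45.2+ HSCs recovered from irradiated female CD45.1 recipients, all of them from old donors. The transplanted HSCs were sorted by other surface markers than the HSCs taken directly from marrow. Cultured cells were sorted as GFP+, so the 3 kinds of HSC library need not hold the same cell population. Accessible chromatin (ATAC-seq) was analysed in 4 young and 4 old libraries of HSCs, with 4 further old columns of the table not used here for want of a matching sample, and H3K27ac, a mark of active promoters and enhancers, in 2 young and 2 old. Transplanted libraries were pools of recipients, and the study calls its paired histone libraries biological replicates. For the cultured and progenitor libraries no source used here says whether those of a group came from separate animals or cultures, so their p-values measure the spread between these libraries, which may be technical.

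Transcription by RNA polymerase II starts when general factors assemble on a promoter. TFIID recognises core promoter elements through TBP and its TAFs, TFIIA and TFIIB hold and orient the complex, TFIIF arrives with the polymerase, and TFIIE brings TFIIH, which opens the DNA and, through its kinase submodule Cdk7, cyclin H and Mat1 (CAK), phosphorylates the polymerase tail. Mediator bridges activators and polymerase, with a head and a middle that contact the polymerase, a tail that meets activators, a scaffold subunit, Med14, and a kinase module that binds reversibly. Core TFIIH also opens DNA in nucleotide excision repair, and several TAFs are shared with the histone acetyltransferase complex SAGA.

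Promoter sequences are shown for 6 members on which the results below turn, from the RefSeq promoter table of assembly GRCm38.p6. Taf12, Cdk7, Gtf2h1, Gtf2h3 and Med7 were among the largest rises in MEPs, Med21 was the largest rise in GMPs, and the last 4 of the 6 also had lower accessibility in old HSCs. Each run is 300 bases, from 250 before to 50 after the annotated start, written 5′ to 3′ on the gene's strand, and capitals mark CCGGAAG, the core recognised by ETS-family factors, and CACGTG, the E-box of MYC and related factors, on either strand.
Taf12, chr4:132274125-132274424, plus strand: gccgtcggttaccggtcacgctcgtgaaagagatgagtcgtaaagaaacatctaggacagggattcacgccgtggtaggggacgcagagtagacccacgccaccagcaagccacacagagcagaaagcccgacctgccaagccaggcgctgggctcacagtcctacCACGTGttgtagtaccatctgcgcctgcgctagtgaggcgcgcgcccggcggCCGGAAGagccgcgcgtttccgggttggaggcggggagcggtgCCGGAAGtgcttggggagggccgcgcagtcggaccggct
Cdk7, chr13:100730893-100731192, minus strand: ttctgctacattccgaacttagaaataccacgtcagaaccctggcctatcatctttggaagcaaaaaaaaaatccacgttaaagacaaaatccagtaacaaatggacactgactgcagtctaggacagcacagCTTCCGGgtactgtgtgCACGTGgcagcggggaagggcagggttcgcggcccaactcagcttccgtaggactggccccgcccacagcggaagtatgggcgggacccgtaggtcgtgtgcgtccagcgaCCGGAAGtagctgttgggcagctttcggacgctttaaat
Gtf2h1, chr7:46795844-46796143, plus strand: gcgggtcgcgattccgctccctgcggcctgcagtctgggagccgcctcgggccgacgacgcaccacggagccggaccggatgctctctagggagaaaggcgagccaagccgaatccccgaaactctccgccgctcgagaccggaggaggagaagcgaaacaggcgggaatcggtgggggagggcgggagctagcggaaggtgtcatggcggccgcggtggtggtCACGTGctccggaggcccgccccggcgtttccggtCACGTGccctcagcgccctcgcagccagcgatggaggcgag
Gtf2h3, chr5:124578898-124579197, plus strand: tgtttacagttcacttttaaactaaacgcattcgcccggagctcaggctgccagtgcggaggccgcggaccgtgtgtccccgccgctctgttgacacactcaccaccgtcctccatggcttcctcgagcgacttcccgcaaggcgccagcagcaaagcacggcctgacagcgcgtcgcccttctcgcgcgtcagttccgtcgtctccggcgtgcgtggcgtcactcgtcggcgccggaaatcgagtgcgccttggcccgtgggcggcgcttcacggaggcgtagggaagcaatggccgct
Med7, chr11:46436711-46437010, plus strand: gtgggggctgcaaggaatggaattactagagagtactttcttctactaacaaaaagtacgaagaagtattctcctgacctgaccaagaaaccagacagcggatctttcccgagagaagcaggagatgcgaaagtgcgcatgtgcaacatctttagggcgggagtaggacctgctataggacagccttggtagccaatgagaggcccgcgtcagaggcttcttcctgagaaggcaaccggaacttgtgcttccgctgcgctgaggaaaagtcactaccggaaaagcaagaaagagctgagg
Med21, chr6:146642329-146642628, plus strand: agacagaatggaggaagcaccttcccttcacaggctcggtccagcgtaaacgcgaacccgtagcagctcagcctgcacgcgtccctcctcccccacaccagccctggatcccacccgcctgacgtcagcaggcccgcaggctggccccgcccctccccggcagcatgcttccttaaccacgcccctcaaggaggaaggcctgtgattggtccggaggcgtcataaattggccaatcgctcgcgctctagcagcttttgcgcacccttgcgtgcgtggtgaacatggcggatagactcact
The Taf12 and Cdk7 windows each held CCGGAAG at 2 places and CACGTG at 1. The Gtf2h1 window held CACGTG at 2 places, and those of Gtf2h3, Med7 and Med21 held neither. Over the 42 members with an entry in the table (50 promoters), CCGGAAG was found in 38% of member promoters against 8.86% of all 32851 promoters and 11.6% of those of coding genes. CACGTG was found in 18% against 7.15% of all and 7.84% of coding promoters, and GGGCGG, the GC box of SP and KLF factors, in 64% against 35.7% and 46.2%. Beside the shares in all and in coding promoters, TATAAA stood in 16% against 13.6% and 12.6%, and CCAAT in 30% against 37.4% and 38.2%. The GATA letters AGATAA or TGATAA stood in 14% against 18.6% and 15.9%. CCNCACCC, the CACCC element of KLF1, stood in 12% against 16.6% and 18.1%. The longer motif of NRF1 stood in 0% against 0.971% and 1.33%, and that of YY1 in 2% against 0.633% and 0.889%. All motifs were searched on both strands. Member promoters averaged 59.3% G and C against 53.8% over all promoters and 56.2% over those of coding genes. The motifs differ in base composition, so a match is a description of letters and not a binding site.

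In young HSCs the subunits of these shared complexes were present at unequal RNA levels. In CPM (counts scaled to a common library size) per kilobase of exon, the highest were Taf10, a histone-fold TAF, at 55.0, Gtf2f1, the large TFIIF subunit, at 36.4, and Ccnh, the cyclin of CAK, at 35.0. The median member stood at 10.2 on this per-length scale. The lowest were Mnat1, the assembly factor of CAK, at 5.33, Ercc2, the excision-repair helicase of TFIIH, at 4.37, and Taf9, a histone-fold TAF, at 0.201. Taf9 shares 73.8% of its exon bases with Ak6 on the same strand and had only 3 to 23 counts in a library, so its level is uncertain, although it is included in the counts over the 50 members. Exons of Taf10 (45.9%, with Ilk), Ercc2 (42.7%) and Med10 (92.8%, with Gm26819) overlap genes on the opposite strand. Smaller shares do so for Med20 (28.4%, part of it on the same strand), Taf6 (26.5%), Med7 (21.2%, with 2310031A07Rik), Taf11 (16.2%) and Med21 (15.5%, with Tm7sf3 and Gm6654). For all of these genes reads of the partner may be included, since no source used here gives the strand setting of the counting. Every other member had at least 370 counts in each library.

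Summed over the 50 members, the level was highest in MEPs. On the normalised CPM scale the sum was 2860 ± 90.2 in young HSCs (SD, n = 4) and 2778 ± 59.8 in old HSCs (n = 8). It was 3653 ± 22.9 in CMPs, 3866 ± 73.0 in GMPs and 5025 ± 21.1 in MEPs (n = 2 each). With library totals alone, an alternative chosen after seeing the data, MEPs still had the highest sum (4170 ± 20.4), but the other groups drew together, with 3204 ± 39.7 in young HSCs, 3074 ± 25.3 in old HSCs, 3280 ± 37.0 in CMPs and 3090 ± 50.7 in GMPs, so the order of HSCs and GMPs depended on the scaling. The HSC and progenitor libraries were also made in separate sets, and per the labels the 6 knockdown groups were made with another kit than both. Among 11 groups on the normalised scale, MEPs had the highest mean for 34 of 50 members and GMPs for 8, while old HSCs had the lowest for 23. With library totals alone MEPs had the highest mean for 29, and GMPs had the lowest for 18 and old HSCs for 11. Taf9, at its low counts, had a ratio of 4.67 between its highest and lowest group. Among the other members the widest range belonged to Gtf2h3, a core TFIIH subunit, whose MEP mean was 4.37 times its GMP mean. Gtf2f1 (4.10 times), Taf12 (4.04 times), Gtf2h1 (3.46 times), Med8 (3.23 times) and Med21 (3.14 times) followed. The narrowest ranges were those of Med15, a tail subunit (1.24 times), Taf3, a TAF that reads H3K4me3 (1.25 times), and Gtf2b, which is TFIIB itself (1.27 times). In bulk samples fewer cells of a type and less RNA per cell cannot be told apart.

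**Figure D1:**
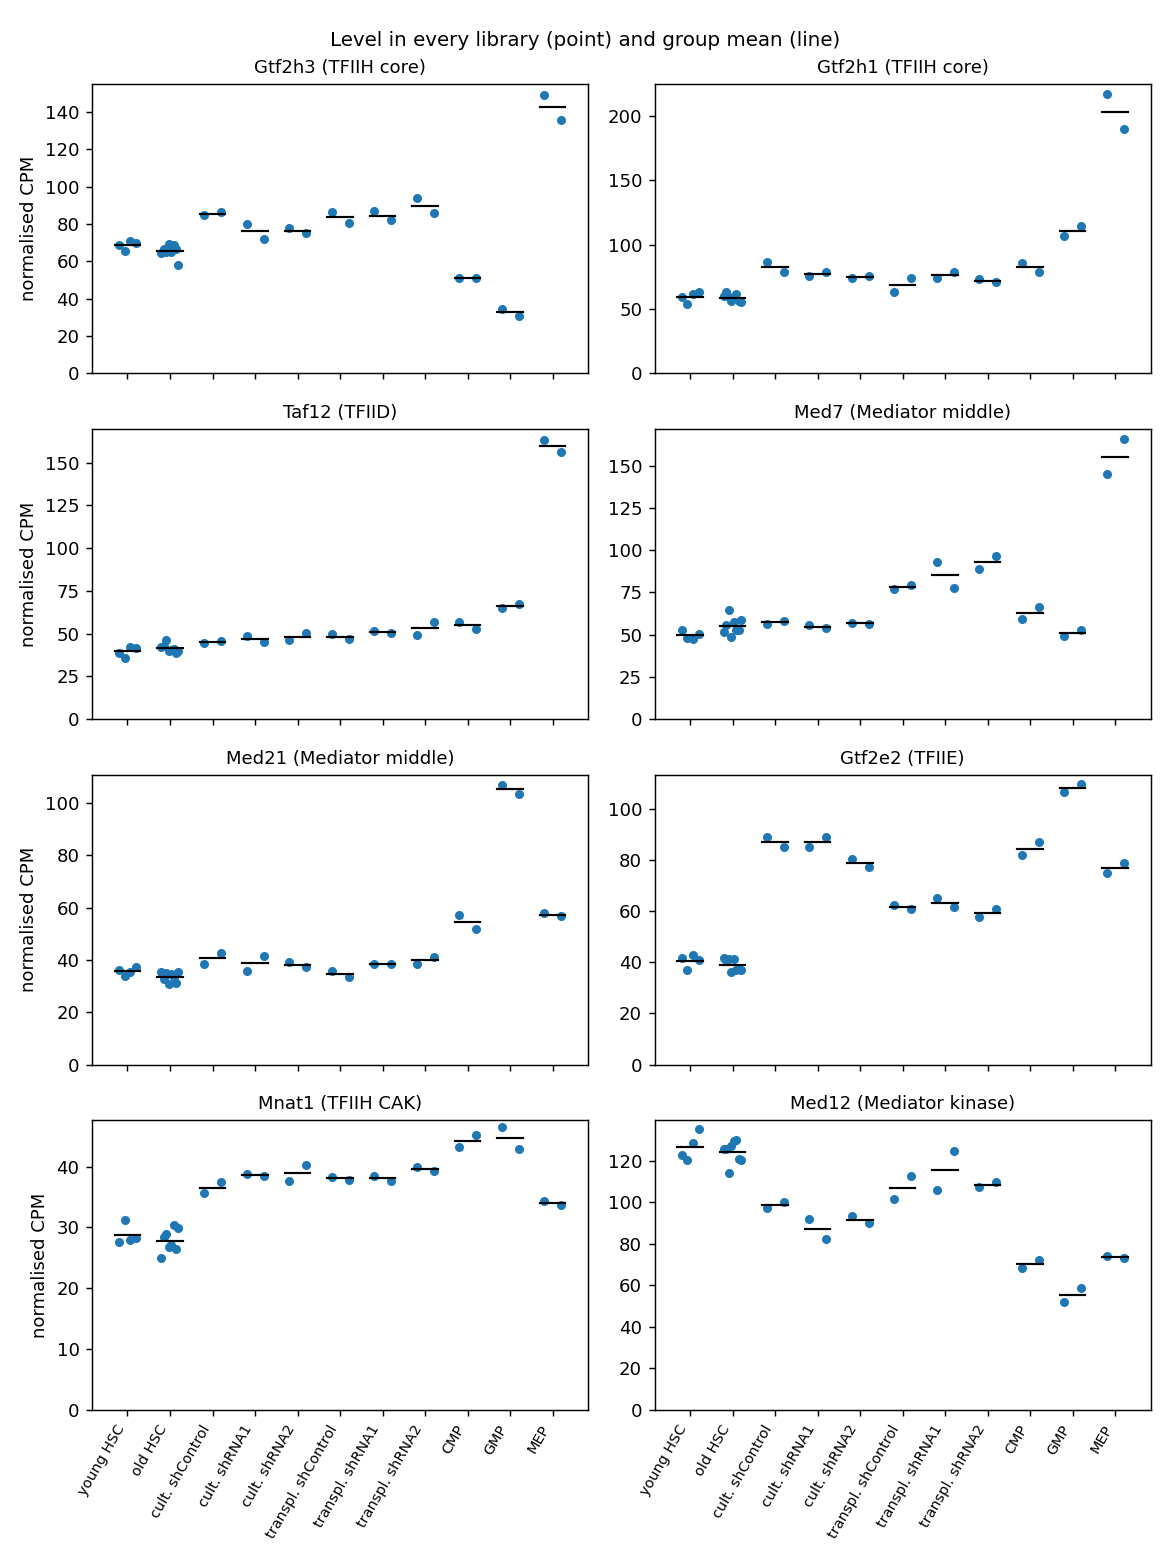
Normalised CPM (y axes, starting at 0) of 8 members in the 30 RNA-seq libraries, with a point for each library and a line for each group mean over 11 groups on the x axes. Gtf2h3, Gtf2h1, Taf12 and Med7 peak in MEPs, where Gtf2h3 is at 149 and 136, and Med21 and Gtf2e2 peak in GMPs.

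Total counts ranged from 20475764 to 42737054 over the 30 RNA-seq libraries, and no pair was identical. HSCs taken directly from marrow had 32867 to 42539 genes detected, against 21375 to 25332 in the other libraries. The summed erythroid markers reached 16047 to 16725 CPM in MEPs against 853 to 902 in CMPs. The summed myeloid markers reached 72280 to 73530 in GMPs against 17935 to 22222 in CMPs. Megakaryocyte markers (7 genes) were lowest in MEPs, at 29.3 to 30.5 CPM with 2 genes at 0, against 650 to 669 in CMPs. By these lists the MEP libraries carried the erythroid but not the megakaryocyte part of their label. Markers of cycling cells (10 genes) summed to 761 to 814 CPM in young HSCs, 4153 to 4295 in CMPs, 4575 to 4688 in GMPs and 5770 to 5913 in MEPs.

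MEPs held more RNA of most general factors and of the Mediator head and middle than CMPs did. At an adjusted p below 0.05 by edgeR's quasi-likelihood test with Benjamini-Hochberg adjustment over all genes tested, 33 of 50 members rose and 2 fell. Of the 18234 genes tested, 28.9% rose and 35.6% fell, against 66% of members that rose. The median member log2 fold change was 0.39 against -0.07 over all genes, and 12 members rose by more than 1.5-fold, which 17.5% of all genes did. This excess was found with the cycling markers also higher in MEPs (9 of 10 rose and 1 fell), and their part in it was not tested. Scaled to library totals alone, an alternative chosen after seeing the data, 30 members rose and 8 fell, with a median of 0.28 against -0.18 over all genes.

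Among the TAFs, 7 of 12 rose in MEPs and none fell. Taf12, a histone-fold subunit shared with SAGA, was at 56.8 and 52.8 CPM in CMPs, 65.2 and 67.1 in GMPs and 163 and 156 in MEPs. Every MEP library was above every other library of the 3 progenitors. The log2 fold change from CMPs to MEPs was 1.55 (SE 0.07, edgeR adjusted p = 1.89e-10), or 2.92-fold. Young HSCs stood lower still, at 38.8, 35.5, 42.3 and 41.6 CPM.

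TFIIA and TFIIF rose as whole complexes, whereas neither TFIIE gene was called. Gtf2f1 was at 115 and 114 CPM in CMPs, 128 and 129 in GMPs and 252 and 261 in MEPs. It rose by 1.17 on the log2 scale from CMPs to MEPs (SE 0.05, edgeR adjusted p = 3.05e-10), with no overlap between groups. Gtf2a2, the small TFIIA subunit, was at 81.6 and 87.4 CPM in CMPs, 90.4 and 97.8 in GMPs and 167 and 168 in MEPs. Its rise of 0.99 (SE 0.07, edgeR adjusted p = 1.76e-08) was 1.99-fold. Gtf2e2, the beta subunit of TFIIE, took another course, with 81.9 and 87.0 CPM in CMPs, 107 and 110 in GMPs and 74.8 and 78.9 in MEPs. GMPs were the high group for Gtf2e2, and the fall from GMPs to MEPs was -0.54 on the log2 scale (SE 0.07, edgeR adjusted p = 1.19e-05).

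Of the 10 TFIIH genes, 8 rose in MEPs against CMPs and 1 fell, with a median log2 fold change of 0.54. Gtf2h3 was at 51.3 and 51.4 CPM in CMPs, 34.4 and 30.9 in GMPs and 149 and 136 in MEPs. GMPs were the low group and MEPs the high one, and no libraries of different groups overlapped. The MEP rise was 1.48 over CMPs (SE 0.08, edgeR adjusted p = 1.78e-09) and 2.08 over GMPs (SE 0.08, adjusted p = 7.14e-11), the latter 4.22-fold. Gtf2h1, the core subunit that contacts TFIIE, was at 85.9 and 78.8 CPM in CMPs, 107 and 115 in GMPs and 217 and 190 in MEPs. It rose at each step of that order, by 0.48 in GMPs and 1.31 in MEPs over CMPs (SE 0.07 for both, edgeR adjusted p = 0.000238 and 3.31e-09). The kinase Cdk7 was at 78.9 and 77.6 CPM in CMPs, 90.6 and 94.7 in GMPs and 149 and 150 in MEPs. Its partner Ccnh was at 132 and 125, 148 and 153, and 170 and 174 CPM in the same groups.
The third CAK gene went the other way. Mnat1, which joins Cdk7 to cyclin H, was at 43.1 and 45.2 CPM in CMPs, 46.5 and 42.9 in GMPs and 34.4 and 33.6 in MEPs. CMPs and GMPs overlapped and MEPs lay below both. The log2 fold change from CMPs to MEPs was -0.37 for Mnat1 (SE 0.09, edgeR adjusted p = 0.00288) and 0.94 for Cdk7 (SE 0.06, adjusted p = 1.16e-08).

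Mediator split by module in MEPs. All 6 head genes and 6 of 7 middle genes rose against CMPs, with medians of 0.53 and 0.35, while 2 of 5 tail genes rose, 1 fell, and neither Med12 nor Med13 of the kinase module nor the scaffold Med14 was called. The difference between modules was not tested, and further Mediator genes, taken from another list, are not in these counts. Med7, a middle subunit that pairs with Med21 in the hinge of the complex, was at 59.0 and 66.6 CPM in CMPs, 49.0 and 52.8 in GMPs and 145 and 166 in MEPs. It rose by 1.31 over CMPs (SE 0.09, edgeR adjusted p = 2.08e-08) and by 1.56 over GMPs (SE 0.09, adjusted p = 3.98e-09). Med10, another middle subunit, was at 39.9 and 41.1 CPM in CMPs, 39.5 and 39.4 in GMPs and 75.4 and 75.1 in MEPs, and its MEP rise over CMPs was 0.90 (SE 0.08, edgeR adjusted p = 3.13e-07). Between CMPs and GMPs Med10 was not called. The tail subunit Med16 fell from 116 and 119 CPM in CMPs to 97.7 and 102 in MEPs (log2 fold change -0.23, SE 0.06, edgeR adjusted p = 0.00648), with GMPs at 114 and 121.

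GMPs differed from CMPs by less. Of 50 members 19 rose and 4 fell, against 18.8% and 16% of the 18234 genes tested, and 2 passed 1.5-fold, against 16.7% of all genes. The median was 0.11 against 0.01 over all genes. These counts depended on the scaling: with library totals alone 4 members rose and 14 fell, the share of rises among all called genes went from 54.1% to 21.5%, and the medians were -0.11 for members and -0.21 for all genes, so the members' median stayed above that of all genes. With genes held to a mean of at least 10 CPM, a filter also chosen after seeing the data, 12 members rose and 6 fell.

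Med21, the middle subunit, had the largest GMP rise. It was at 57.2 and 51.9 CPM in CMPs, 107 and 104 in GMPs and 57.8 and 56.6 in MEPs, so GMPs stood alone and CMPs and MEPs overlapped. The GMP rise was 1.00 over CMPs (SE 0.07, edgeR adjusted p = 3.79e-07), and MEPs lay below GMPs by 0.93, a log2 fold change of -0.93 (adjusted p = 9.01e-08). Its hinge partner Med7 fell in GMPs by -0.26 (SE 0.09, edgeR adjusted p = 0.0423), a call that was lost in 3 of the 6 fits that each left out 1 library, in which the library left alone in its group is assumed to vary like the others. The other rises in GMPs were smaller: Gtf2f2, the small TFIIF subunit, went from 47.0 and 45.0 CPM to 60.3 and 61.0, Gtf2e2 by 0.41 on the log2 scale, and Gtf2h5, the smallest TFIIH subunit, from 74.6 and 71.5 CPM to 92.2 and 91.1. Med17, a head subunit, went from 68.8 and 70.9 CPM to 88.3 and 86.1, Taf12 rose by 0.32, and Ercc3, the TFIIH translocase that opens promoters, went from 28.7 and 30.5 CPM to 35.0 and 35.8. The log2 changes of Gtf2f2, Gtf2h5, Med17 and Ercc3 were 0.45, 0.38, 0.37 and 0.31 (edgeR adjusted p = 0.000618, 0.000472, 0.00128 and 0.0261). Leaving out single libraries could end the call of Ercc3, whose change then ran from 0.25 to 0.36, but not those of Gtf2f2, Gtf2h5 and Med17.
Falls in GMPs were led by Gtf2h3, at -0.60 (SE 0.08, edgeR adjusted p = 8.98e-05). Med12, which activates the Mediator kinase, went from 68.4 and 72.3 CPM in CMPs to 52.1 and 58.9 in GMPs, a log2 fold change of -0.29 (SE 0.08, adjusted p = 0.0132). Med22, a head subunit, was at 114 and 121 CPM in CMPs, 92.8 and 105 in GMPs and 178 and 175 in MEPs. Its GMP change was -0.20 (SE 0.07, edgeR adjusted p = 0.0381). Without library 1 of GMPs or library 2 of CMPs only 1 of the 4 falls was called, and without library 2 of GMPs 12 rises were.

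**Figure D2:**
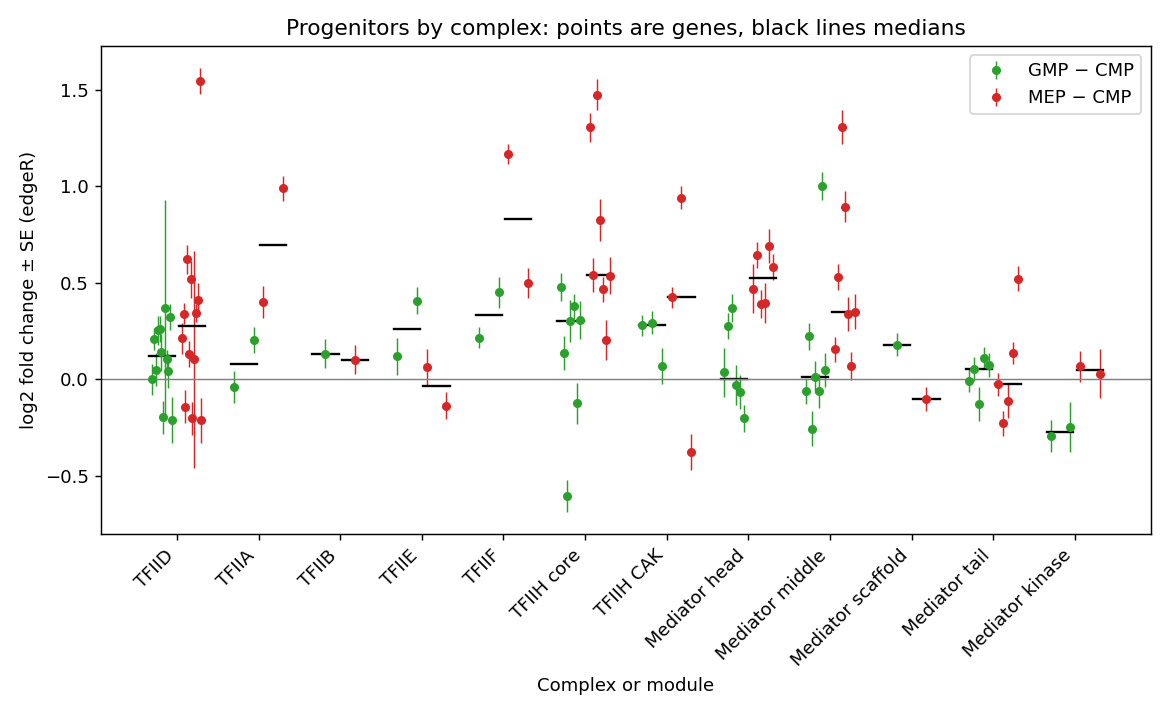
Log2 fold change (y axis, edgeR, ± SE) of each member in GMPs (green) and MEPs (red) against CMPs, by complex or module (x axis), with the median of each set as a line. TFIIH has medians of 0.29 in GMPs and 0.54 in MEPs over its 10 genes together, and with library totals alone instead of the normalisation shown 14 members fell and 4 rose in GMPs.

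Against GMPs, MEPs had 29 members higher and 5 lower, where 27.7% and 33.7% of all genes rose and fell. The 3 progenitor comparisons share libraries, so their values are set side by side and no overlap between them is tested. Against CMPs, 15 members rose in both GMPs and MEPs, among them Cdk7, Ccnh, Gtf2f1 and Gtf2h1. Gtf2h3, Med7 and Med22 fell in GMPs and rose in MEPs, and Taf6, Gtf2e2, Med21 and Med14 rose in GMPs without a call in MEPs. The scaffold Med14 was at 133 and 134 CPM in CMPs, 139 and 153 in GMPs and 123 and 125 in MEPs, and was lower in MEPs than in GMPs by a log2 fold change of -0.28 (SE 0.06, edgeR adjusted p = 0.00123). Of the members, 9 were called in none of the 3 comparisons: Taf3, Taf8, Taf9, Taf13, Gtf2b, Gtf2e1, Med15, Med23 and Med13. No share of all genes with the same patterns is given, so these counts describe the members alone. Most rises in GMPs were lost with library totals alone, so the patterns depend on the scaling. The GMP falls of Med7 and Med22 were also unsteady when single libraries were left out.

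CMPs had more RNA of most members than young HSCs had, and less of Med12 and Med13 of the Mediator kinase module. At an edgeR adjusted p below 0.05, 41 members rose and 4 fell, against 33.5% and 47.6% of the 22360 genes tested, and 17 rose by more than 1.5-fold against 23.3% of all genes. The median was 0.47 against -0.33 over all genes. With library totals alone 19 members rose and 8 fell, and the medians were 0.09 for members and -0.71 for all genes, so the rises are relative to the other genes. Cell type and library series cannot be told apart here, because HSC and progenitor libraries were made in separate sets with different numbers of genes detected. Cycling markers were also higher in CMPs, at 4153 to 4295 CPM against 761 to 814 in young HSCs, and their part was not tested.
The largest rises were those of Med18, Gtf2f2 and Gtf2e2. Med18, a head subunit, was at 21, 16.4, 19.5 and 18.5 CPM in young HSCs and at 40.9 and 42.5 in CMPs (log2 fold change 1.2, SE 0.09, edgeR adjusted p = 1.23e-09). Gtf2f2 was at 20.9, 19.2, 23.0 and 23.8 CPM in HSCs and 47.0 and 45.0 in CMPs, a rise of 1.14. Gtf2e2 was at 41.7, 37.0, 42.8 and 40.8 CPM in HSCs, 1.11 below CMPs on the log2 scale. None of these groups overlapped. Med8, another head subunit, was at 37.6, 35.8, 40.8 and 35.2 CPM in HSCs and 74.6 and 71.6 in CMPs, a rise of 1.03. Gtf2h5, Taf5 (a WD40-repeat TAF), Taf2 (a TAF that contacts the initiator) and Gtf2f1 rose by 0.99, 0.98, 0.95 and 0.93.
Both kinase-module members among the 50 fell, whereas the other genes of that module, taken from another list, split. Med12 was at 123, 120, 128 and 135 CPM in young HSCs and 68.4 and 72.3 in CMPs (log2 fold change -0.79, SE 0.06, edgeR adjusted p = 7.99e-10). Med13, which links the module to core Mediator, was at 64.0, 62.2, 57.9 and 58.3 CPM in HSCs and 40.9 and 34.7 in CMPs (-0.62, SE 0.07, adjusted p = 5.03e-07). In both genes every HSC library was above both CMP libraries. Of the others, the kinases Cdk8 and Cdk19 and their cyclin Ccnc rose, by 0.69, 0.30 and 0.57 on the log2 scale, and the paralogues Med12l and Med13l had -1.64 and -0.58 (edgeR adjusted p at most 6.52e-05 for these 5). Gtf2h3 (68.8, 65.8, 70.9 and 70.0 CPM in HSCs) and the tail subunit Med23 (76.2, 71.6, 72.1 and 74.1 CPM in HSCs, 58.2 and 57.9 in CMPs) also fell, by -0.37 and -0.28 on the log2 scale (edgeR adjusted p = 1.33e-05 and 0.000141).

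Other genes of the initiation and early elongation machinery were taken from lists of their own. Of 12 polymerase II subunits, 12 rose from young HSCs to CMPs, against 33.5% of all genes, in a comparison where the members' rises depended on the scaling. From CMPs to MEPs 11 rose, against 28.9% of all genes. There the largest subunit gene, Polr2a, fell (log2 fold change -0.20, edgeR adjusted p = 0.00777) and Polr2l rose by 0.98. Of 15 pausing and elongation factors, 12 rose in MEPs and none fell, led by Ell2, a super elongation complex subunit, at 3.42. Among 20 further initiation and Mediator genes tested, 11 rose in MEPs and 4 fell. Taf9b, the paralogue of Taf9, rose by 1.45, whereas Cdk19, a Mediator kinase, changed by -1.83. Btaf1, whose full-length product removes TBP from DNA, rose by 1.23 when counted over all its transcripts. The paper reports that its shorter variant, without the ATPase domain needed for this removal, was highest in MEPs among these progenitors. Of 13 SAGA genes 4 rose and 3 fell in MEPs, against 28.9% and 35.6% of all genes.

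**Figure D3:**
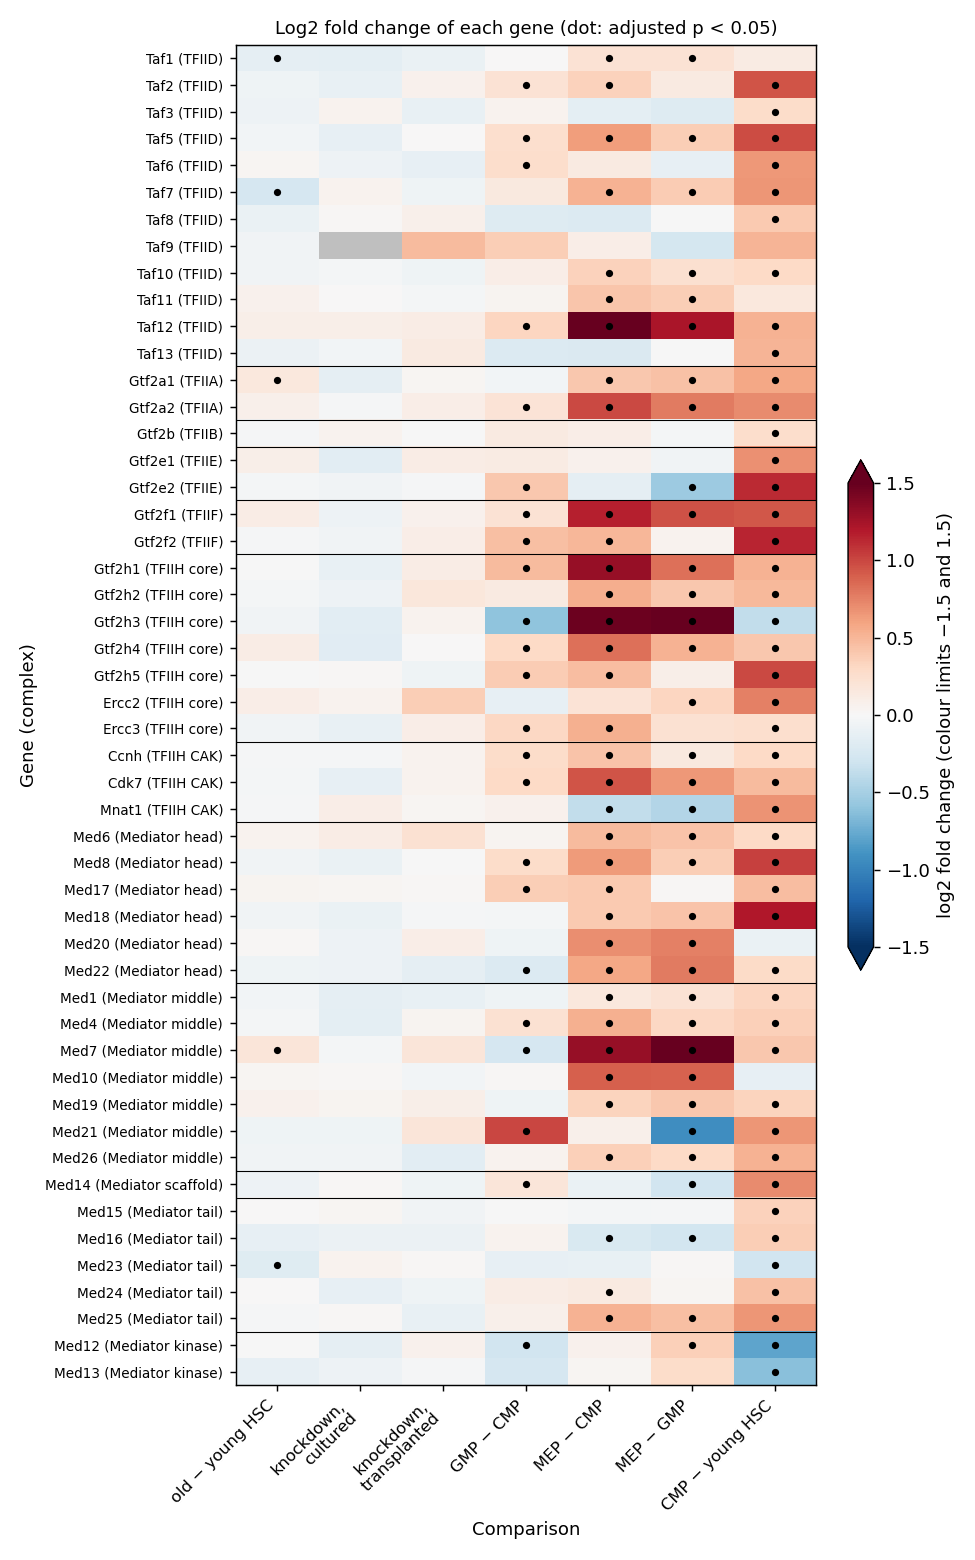
Log2 fold change (colour, limits -1.5 and 1.5) of the 50 members (y axis) in the RNA comparisons (x axis), with a dot at an edgeR adjusted p below 0.05 and grey where a gene was not tested. Dots fill the columns of MEPs (33 rises against CMPs) and CMPs (41 rises against young HSCs) and are few for age (5) and absent for the knockdown. With library totals alone, GMPs had 4 rises and 14 falls and CMPs 19 rises and 8 falls.

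With age the members changed little. Between old and young HSCs 2 of 50 rose and 3 fell, that is 10% called where 20.6% of the 21522 genes tested were (11.9% higher and 8.67% lower), so the share was below the background. No member passed 1.5-fold, against 7.52% of all genes. The median log2 fold change was -0.03 against -0.01, with 17 values positive and 33 negative. No TFIIH gene of 10 was called. With library totals alone no member rose and 7 fell, with the median at -0.07, and the share of rises among all called genes went from 57.9% to 44.5%.

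The tail subunit Med23 had the steadiest difference. It was at 76.2, 71.6, 72.1 and 74.1 CPM in young HSCs and between 59.4 and 67.1 in old HSCs, with a median of 63.6. All 8 old libraries were below all 4 young ones. The log2 fold change was -0.19 (SE 0.04, edgeR adjusted p = 0.00283), and it stayed called in each of the 12 fits that left out 1 library. Taf7, which binds Taf1 and restrains its acetyltransferase activity, was at 21.4, 18.5, 18.9 and 20.6 CPM in young HSCs and between 15 and 17.9 in old ones, median 16.2. The groups did not overlap either, and the log2 fold change was -0.25 (SE 0.07, edgeR adjusted p = 0.00965). Without young library 1 or 4 the adjusted p for Taf7 was 0.072 or 0.052.
The other calls were smaller and less steady. Taf1, the largest TAF, was at 86.3, 79.1, 90.0 and 91.9 CPM in young HSCs and between 72.6 and 84.6 in old ones, median 78.4 (log2 fold change -0.14, SE 0.05, edgeR adjusted p = 0.0445). Young library 2 lay inside the old range. Med7 rose, from 52.5, 48.2, 47.2 and 50.4 CPM in young HSCs to between 48.7 and 64.9 in old ones, median 54.2 (0.18, SE 0.06, adjusted p = 0.0373). Gtf2a1, the large TFIIA subunit, was at 80.5, 75.2, 71.5 and 81.4 CPM in young HSCs and between 72.1 and 91.4 in old ones, median 87.1 (0.16, SE 0.06, adjusted p = 0.0439). Old and young libraries overlapped for Med7 and Gtf2a1. Leaving out single libraries ended the call for Taf1 in 10 of 12 fits, for Gtf2a1 in 8 and for Med7 in 6. The rises were 0 without young library 2 or 3 or old library 5 or 8, and 1 without young library 4 or old library 1, 2, 3, 6 or 7. The falls were 1 without young library 1 or 4.
Several other values moved with age in the same libraries. B-cell markers (9 genes) summed to 84.4 to 159 CPM in young HSCs and 34.8 to 41.6 in old HSCs, with none at 0 in either group. Cycling markers summed to 761 to 814 and 508 to 657 CPM, and megakaryocyte markers (7 genes) to 475 to 520 and 1293 to 1559 CPM. Their part in the 5 member calls was not tested. Among 21 other initiation and Mediator genes tested 5 rose with age (23.8%, against 11.9% of all genes) and 0 fell. The rises included Dr1, a TBP-binding repressor (0.59, edgeR adjusted p = 3.21e-09), and Med12l, the paralogue of Med12 (0.43, adjusted p = 2.07e-07). Btaf1, counted over all its transcripts, also rose (0.53, edgeR adjusted p = 0.000807). The paper reports a rise with age for its shorter variant only. No polymerase II subunit of 12 was called.

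Promoters of the members were less accessible in old HSCs in some cases and more accessible in none. Of the 53 ATAC-seq regions at the 50 members' promoters 13 were lower and 0 higher at an edgeR adjusted p below 0.01. Of 15901 promoter regions tested, 24.8% were lower and 3.93% higher (28.8% called in all), so the members' share of lower regions, 13 of 53, was near the background. The median log2 fold change was -0.18 for member regions, -0.13 for all promoter regions and -0.01 for all 89245 regions. In sign, 52 of 53 member regions and 78.8% of all promoter regions were negative. No called member region passed 1.5-fold, while 3.97% of promoter regions were called and passed it. A second, smaller region at Taf11 (chr17:27907580-27907895) had the most negative value, -0.66 (SE 0.23), without a call (edgeR adjusted p = 0.0181). Library totals of the ATAC-seq data ranged from 15427933 to 26260337 counts.

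The lowest adjusted p belonged to the region at Taf7. It was at 49.9, 52.1, 47.8 and 49.0 normalised CPM in young libraries and 37.9, 36, 39.5 and 34.0 in old ones (log2 fold change -0.43, SE 0.05, edgeR adjusted p = 3.88e-09). The region of Med7 (chr11:46436735-46437897, build mm10), which holds most of the promoter printed above, was at 49.9, 53.3, 48.5 and 50.8 CPM in young and 39.1, 39.2, 34.6 and 41.3 in old libraries (-0.39, SE 0.05, adjusted p = 4.95e-08). At Med21 (chr6:146641987-146643059) the values were 35.5, 36, 35.6 and 36.6 in young and 28.7, 29, 26.7 and 26.8 in old libraries (-0.37, SE 0.06, adjusted p = 1.25e-06). The young libraries were above the old ones in these 3 regions, which were picked by their low p in the same libraries. At Med23 (chr10:24869574-24870394) they were 56.5, 59.3, 57.7 and 54.9 in young and 47.5, 46.2, 49.9 and 47.9 in old libraries (-0.25, SE 0.05, adjusted p = 3.79e-05).
The other called regions lay at Med1, the subunit that binds nuclear receptors (-0.46), Med24, a tail subunit (-0.43), Gtf2h3 (-0.38), Taf11, a histone-fold TAF (-0.38), Taf3 (-0.25), Gtf2h1 (-0.25), Med14 (-0.22), Taf10 (-0.20) and Gtf2a1 (-0.16). Those of Gtf2h3, Taf11 and Gtf2h1 also hold the start of a neighbouring gene, Eif2b1, Anks1 and Hps5. At Gtf2h3 the groups overlapped, with old library 8 at 8.78 CPM and young library 4 at 8.66. The region of Med15 (-0.29, edgeR adjusted p = 0.0118) was the nearest outside the threshold.
RNA and accessibility were measured in different libraries, and the members' values can be set side by side. Taf7 and Med23 were lower in old HSCs by both. Med7 and Gtf2a1 had more RNA in old HSCs and a less accessible promoter region, and Taf1 had less RNA with a region at -0.13 that was not called (edgeR adjusted p = 0.12). Med21, with a fall of 0.37 in accessibility, was not called in RNA.

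**Figure D4:**
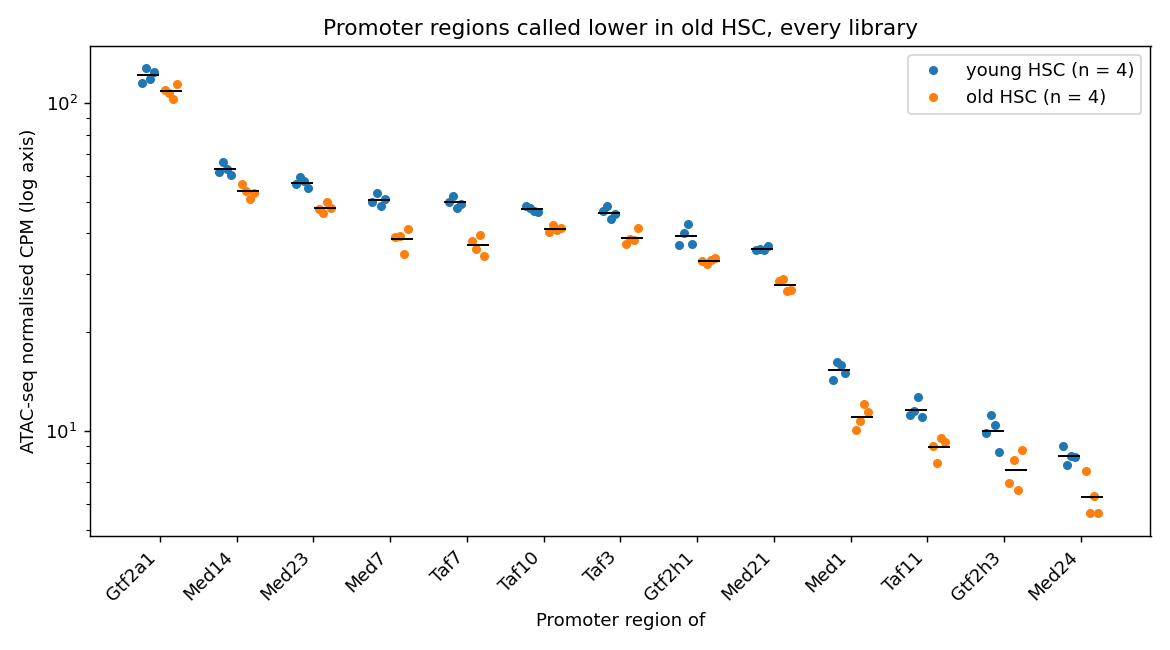
ATAC-seq normalised CPM (y axis, log scale) at the 13 member promoter regions (x axis) with an adjusted p below 0.01 between 4 young and 4 old libraries of HSCs, a point for each library. The regions were chosen by this test, so the lower position of the old libraries, such as 34.0 to 39.5 CPM against 47.8 to 52.1 at Taf7, follows from the choice.

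H3K27ac at the same promoters showed no called difference between old and young HSCs, and the other marks were read in young HSCs alone. H3K27ac peaks were listed at 48 members' promoters (50 peaks, none for Taf7 or Med20). None was called between old and young HSCs by limma on log2(signal + 0.5), and none had an unadjusted p below 0.05, while 0.702% of the 13392 promoter peaks and 2.3% of all peaks were called. The median log2 difference was -0.02 for members and for all promoter peaks. The most negative value, -0.32 at Med8 (95% interval -0.70 to 0.05), came from signals of 6.81 and 6.76 in young and 4.90 and 5.76 in old libraries. The most positive, 0.27 at Med4, a middle subunit, came from 6.27 and 4.82 in young and 6.55 and 6.95 in old libraries. At Med7 the signals were 10.96 and 10.80 in young and 10.40 and 14.35 in old libraries. The 95% interval of that difference ran from -0.25 to 0.57 on the log2 scale.
In young HSCs H3K4me3, the mark of active start sites, had promoter peaks at 48 of 50 members and 15465 genes in all, with a median signal of 24.1 against 17.4 over all promoter peaks. The lowest signals were at the X-linked Med12 (8.20), Med14 (9.09) and Taf1 (10.5), and the highest at Med22 (32.6), Gtf2h1 (30.3) and Taf9 (29.9). The accessible regions at Med22, Gtf2h1 and Taf9 also hold starts of other genes, so their H3K4me3 signal may be shared. These are Rpl7a at Med22, Hps5 at Gtf2h1, and Ak6 and Rad17 at Taf9. H3K27me3, the Polycomb mark, had a promoter peak at 0 of 50 members and 8443 genes in all. Among all 55376 genes of the RNA tables, matched by symbol, 27.5% had an H3K4me3 and 14.9% an H3K27me3 promoter peak. Among the 16655 with a mean of at least 1 CPM in young HSCs, these shares were 75% and 15.2%, beside 47 and 0 of the 49 members at that level. Both gene sets were chosen after seeing the data.

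The Btaf1 knockdown was checked at its target and at TBP first. In culture Btaf1 was at 149 and 152 CPM with shControl and between 116 and 125 in the 4 hairpin libraries (log2 fold change -0.31, SE 0.05, edgeR adjusted p = 0.00151), counting all Btaf1 transcripts and not only the shorter variant. After transplantation it was at 156 and 161 CPM with shControl and between 115 and 135 with the hairpins (-0.37, SE 0.08, adjusted p = 0.791, unadjusted p = 0.000891). Tbp was at -0.01 in culture (95% interval -0.12 to 0.10) and 0.10 after transplantation (-0.06 to 0.26).

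No member was called in cultured old HSCs after the knockdown. Of the 49 tested 0 passed edgeR's adjusted p of 0.05, against 3.36% of 19763 genes, and 9 had an unadjusted p below 0.05 against 15.3%. DESeq2 also called 0, and an unadjusted p below 0.05 with a fold above 1.5 was reached by 0 members and 3.42% of all genes. The median was -0.06 against 0.00, and every member lay between -0.17 and 0.11 on the log2 scale. The lowest was Gtf2h4, a core TFIIH subunit, at 36 and 35.3 CPM with shControl, 32.2 and 30.4 with shRNA1 and 31.8 and 31.3 with shRNA2 (-0.17, 95% interval -0.32 to -0.02, edgeR adjusted p = 0.234). Gtf2h3 was at 84.8 and 86.3, 80.2 and 72.2, and 77.8 and 75.2 CPM in the same arms (-0.16, adjusted p = 0.184). Gtf2e1, the large TFIIE subunit, had -0.15 (adjusted p = 0.291), with hairpin libraries at 44.1 to 49.5 CPM and shControl at 51.7 and 54.1. These 3 genes were picked for their low values. The most positive values were Med6, a head subunit (0.11, 95% interval -0.10 to 0.31), Mnat1 (0.10) and Taf12 (0.09). Taken alone, shRNA1 gave 2 falls, Taf1 (-0.16, edgeR adjusted p = 0.0185) and Med1 (-0.20, adjusted p = 0.0152), and shRNA2 gave 1, Taf2 (-0.19, adjusted p = 0.0386), all 3 named after their values were seen. In these fits 5.79% and 4.22% of all genes fell. Cycling markers were lower in culture with the hairpins, 5 of 10 called, with sums of 3034 to 3379 CPM against 3448 to 3498, and their part in the members' values was not tested.

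No member was called after transplantation either, where edgeR called 0% of 20350 genes. Of the members 1 had an unadjusted p below 0.05, against 5.59% of all genes, and DESeq2 called 0. An unadjusted p below 0.05 with a fold above 1.5 was reached by 0 members and 2.24% of all genes. Ercc2 was at 15.1 and 12.9 CPM with shControl, 17.1 and 19.8 with shRNA1 and 18.2 and 17.0 with shRNA2 (log2 fold change 0.36, 95% interval 0.07 to 0.66, edgeR adjusted p = 0.852). Med6 had 0.23 and the uncertain Taf9 0.47 with an interval from -0.90 to 1.84. Med26, which recruits elongation factors, Med22 and Taf6, a histone-fold TAF, had the most negative values, at -0.16, -0.13 and -0.13.

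The difference between the knockdown effects after transplantation and in culture was tested in one model over the 12 libraries. It was called in no member, against 0.21% of 21443 genes, and 4 members had an unadjusted p below 0.05, against 8.75%. The median difference was 0.07 for members and -0.01 for all genes. The largest were Ercc2 (0.31, 95% interval -0.01 to 0.63), Gtf2e1 (0.27) and Med21 (0.25, 0.01 to 0.49, edgeR adjusted p = 0.558), and the most negative Taf3 (-0.16), Med25, a tail subunit (-0.12), and Taf7 (-0.12).

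Across the 8 RNA comparisons Med7 was called in 5. Taf5, Taf7, Taf12, Gtf2a1, Gtf2a2, Gtf2f1, Gtf2h1, Gtf2h3, Gtf2h4, Ccnh, Cdk7, Med8, Med22 and Med4 were called in 4. Several of these comparisons share libraries, and no share of all genes called as often is given.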

How the data were processed

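Libraries were grouped by the GEO labels. RNA-seq reads were trimmed by the authors, mapped to mm10 by STAR and summed per GENCODE gene by featureCounts, and the deposited values are raw counts. The deposited ATAC-seq values are raw counts per consensus region, from deduplicated BWA alignments. For histone marks the authors deposited signal per peak from libraries scaled to equal reads. Ratio and log2 columns of old over young, which are the authors' own, and 8 value columns without a matching sample were not used.

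RNA counts (without 92 spike-ins) and ATAC-seq counts were tested with edgeR 4.0.16 (quasi-likelihood, TMM, Benjamini-Hochberg adjustment over all features), the RNA after filterByExpr at an adjusted p of 0.05 and the ATAC-seq for regions above 1.5 CPM in at least 4 libraries at 0.01. H3K27ac was tested with limma 3.58.1 on log2(signal + 0.5). A promoter was 1000 bases before to 100 after a start. DESeq2 1.42.0, other normalisations and filters, a replicate block, single hairpins and each library left out were tried. The scripts were tested on simulated data.

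Members and lists were chosen with earlier results of these data known. Named were, per RNA comparison, up to 8 largest called rises and 8 falls, and where fewer than 4 passed also the 3 largest values in each direction. Also named were the 3 highest and lowest per length, members called in at least 4 comparisons or at their promoter, up to 3 called genes of each other list, and Btaf1 and Tbp. Genes and regions outside this rule were named after their values were seen.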

Additional observations from a re-analysis of the deposited data

Results flagged for a closer look

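A library was taken as far from its group where its gap to the nearest library, divided by the group's range, passed Dixon's 95% limit. Chance gives this in about 1 in 20 groups, and 3 of 100 RNA values and 1 of 106 ATAC-seq values passed. In old HSCs, Gtf2h3 in library 8 was at 57.9783 CPM, where the nearest library was at 64.6. Med1 in old library 3 was at 76.3706 CPM, with the nearest at 82.4, and Med10 in the same library was at 54.5947 CPM, with the nearest at 48.2. The ATAC-seq region at the Cdk7 promoter in old library 8 was at 15.9992 CPM, with the nearest at 14.1. None of these 4 was called between old and young HSCs.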

How the results depend on the processing

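Of the member values under alternatives, 1030 of single genes kept their direction and their side of the threshold, 67 lost a call and 1 reversed: the difference between knockdown effects of Taf7 without cultured shControl library 1 (0.00082, with a range of -0.25 to 0.00082 over the 12 libraries left out). Against age, DESeq2's size factors gave 1 rise, a fold above 1.5 gave 0 rises and 0 falls, and library totals alone 0 rises, 7 falls and a median of -0.068. In GMPs against CMPs no filter gave a median of 0.064, a fold above 1.5 gave 1 rise and 1 fall, a mean of 10 CPM gave 12 rises and a median of 0.032, and totals alone 4 rises, 14 falls and -0.11. In MEPs against CMPs no filter gave 5 falls and a median of 0.34, a fold above 1.5 gave 12 rises and 0 falls, a mean of 10 CPM 8 falls and 0.31, and totals alone 8 falls and 0.28. In MEPs against GMPs a fold above 1.5 gave 10 rises and 1 fall, and totals alone a median of 0.39. In CMPs against young HSCs a fold above 1.5 gave 17 rises and 2 falls, a mean of 10 CPM a median of 0.25, and totals alone 19 rises, 8 falls and 0.088. In the cultured knockdown shRNA1 alone gave 2 falls and a median of -0.039, shRNA2 alone 1 fall and -0.033, a mean of 10 CPM -0.042 and totals alone -0.039. At an adjusted p of 0.05, 22 member promoter regions were less accessible (36.3% of all promoter regions were), and H3K27ac scaled to equal medians had a median of -0.10. The cause of these shifts was not tested. Where a fit without 1 library left a group with a lone library, that library is assumed to vary like the other groups.

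With the replicate number as a block, age gave 0 rises and 1 fall (Med23), and no other RNA count moved by more than 1.5 times. Deviations of same-numbered libraries correlated at -0.06 to 0.18, so the numbers were not taken as pairs. Young and old ATAC-seq libraries share no number.

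Leaving out 1 library at a time, age gave 0 to 2 rises, 1 to 4 falls and medians of -0.048 to -0.0043, GMPs 12 to 18 rises, 1 to 4 falls and 0.078 to 0.12, MEPs against CMPs 28 to 32, 2 to 4 and 0.33 to 0.41 (4 falls without CMP library 1), MEPs against GMPs 23 to 29, 5 to 6 and 0.26 to 0.32, and CMPs against HSCs 40 to 41, 4 to 5 and 0.41 to 0.47. Knockdown medians ran from -0.065 to -0.034 in culture, 0.010 to 0.037 after transplantation and 0.040 to 0.10 for their difference, with 0 calls throughout. Accessibility gave 9 to 13 lower regions and medians of -0.20 to -0.14, and H3K27ac 0 calls and -0.067 to 0.0057. Groups of 2 libraries limit the progenitor, knockdown and histone comparisons, and the low counts of Taf9 limit that gene.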
